A study of Mus musculus with 8 samples.

Results

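The miR-30 family is a set of closely related microRNAs (miRNAs), small RNAs that pair with messenger RNAs and lower their output. The arms described here are 10 mature mouse sequences listed by name. The 5p arms are mmu-miR-30a-5p, mmu-miR-30b-5p, mmu-miR-30c-5p, mmu-miR-30d-5p and mmu-miR-30e-5p, and the 3p arms are mmu-miR-30a-3p, mmu-miR-30c-1-3p, mmu-miR-30c-2-3p, mmu-miR-30d-3p and mmu-miR-30e-3p; the prefix mmu, for mouse, is left out from here on. All 10 were present among the 443 mature sequences counted in liver. The remaining family arm in the table, miR-30b-3p, is outside the list and is given beside it. No other sequence in the table carried the shared 5p seed.

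All liver samples were from male mice of the inbred strain C57BL/6J, aged 10 to 11 weeks. In 4 of them the mice had spent 2 weeks on a high-fructose diet (HFrD) that drew 10% of its calories from fat, 70% from carbohydrate and 20% from protein. The other 4 samples came from mice on a normal diet, called chow here. The composition of the chow is not given in the labels, so fructose and any other difference between the diets cannot be told apart. The samples are numbered as replicates and are not stated to be separate mice, so every p-value refers to the spread among the samples, which may be technical.

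A miRNA hairpin is cut into a 5p and a 3p arm, and usually 1 of them, the guide, is loaded into an Argonaute protein while the other is degraded. Bases 2 to 8 of the loaded arm, the seed, do most of the target pairing, so arms with the same seed have overlapping sets of targets. For the miR-30 hairpins the guide is mainly the 5p arm. In mice, miR-30c is known to act on the messenger RNA of Mttp, which loads lipid onto the lipoproteins that hepatocytes secrete, and in human cells miR-30a is known to act on the autophagy gene BECN1.

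The sequences below show how the family divides into a shared 5p seed and separate 3p seeds. They are RefSeq sequences on GRCm38.p6, available here for 7 of the family's arms, and are written 5′ to 3′ with the seed in capitals.
miR-30a-5p: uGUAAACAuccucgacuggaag
miR-30e-5p: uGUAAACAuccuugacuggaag
miR-30c-5p: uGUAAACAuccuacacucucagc
miR-30a-3p: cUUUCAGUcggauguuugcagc
miR-30e-3p: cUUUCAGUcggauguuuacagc
miR-30c-1-3p: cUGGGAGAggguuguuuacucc
miR-30c-2-3p: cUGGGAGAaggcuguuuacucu
Counting from 1 at the 5′ end, miR-30e-5p differs from miR-30a-5p by the single substitution C13U, and miR-30e-3p differs from miR-30a-3p by G18A. The substitutions G9A, U12C and C22U separate miR-30c-2-3p from miR-30c-1-3p. By contrast miR-30c-5p differs from miR-30a-5p at 5 bases, all of them outside the seed. The rule for assigning reads that match more than 1 near-identical arm, not given in the sources used here, bears on every pair that differs at a single base.

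On GRCm38, miR-30a-5p lies at chr1:23272274-23272295 and miR-30a-3p at chr1:23272315-23272336, both on the plus strand, in a hairpin that overlaps no other annotated gene. Downstream on the same strand, 19361 bases away, the Mir30c-2 hairpin lies in an exon of the long noncoding RNA gene Gm27028 and carries miR-30c-2-3p at chr1:23291754-23291775. The Mir30c-1 and Mir30e hairpins sit in introns of Nfyc, which encodes a subunit of the transcription factor NF-Y, on the minus strand and 2983 bases apart. There miR-30e-5p lies at chr4:120772660-120772681, miR-30e-3p at chr4:120772618-120772639 and miR-30c-1-3p at chr4:120769546-120769567. Over the same bases as the Mir30e hairpin, a further miRNA gene, Mir30f, is annotated on the plus strand. Both miR-30c hairpins give the same miR-30c-5p, at chr1:23291714-23291736 and at chr4:120769584-120769606.

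Libraries held 1120035 to 1638036 counts, and a single count was worth 0.610 to 0.893 CPM, counts scaled to a library total of 1000000. Levels below are CPM over the library size scaled by trimmed mean of M-values (TMM) factors unless library totals are named. The first principal component of log2 CPM held 37.4% of the variance and placed chow replicate 4 at -4.92, apart from the other chow samples at -1.74 to -0.52 and the HFrD samples at 1.47 to 2.61. Its TMM factor, 0.894, was the lowest and that of HFrD replicate 1, 1.13, the highest. In bulk liver, fewer cells of a type and less of a miRNA per cell cannot be told apart.

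The family was dominated by miR-30a-5p, which fell on HFrD. Of the 10 listed arms, 8 passed the filter on low counts and 1 of these 8, miR-30a-5p, passed edgeR's quasi-likelihood test at an adjusted p of 0.05, where 5.88% of the 170 sequences tested passed in either direction and 3.53% as lower on HFrD. The tested listed arms had a median log2 ratio of -0.06 with 4 higher and 4 lower, against 0.01 over all sequences tested, with 89 higher and 81 lower. The 5p arms taken alone had a median of -0.34, with 2 higher and 3 lower. At an unadjusted p under 0.05 in edgeR, 3 of the 8 listed arms passed, against 23.5% of all tested. The number of sequences passing in the whole table, 10, was 1 without chow replicate 2, 17 without chow replicate 3 and 6 without HFrD replicate 4.

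The most abundant member, miR-30a-5p, was counted 53208, 41323, 66696 and 48949 times in HFrD replicates 1 to 4 and 52247, 57177, 57196 and 78756 times in chow replicates 1 to 4. Scaled, its level was 34083, 35403, 41927 and 36990 CPM on HFrD, against 41619, 48561, 44488 and 70098 CPM on chow. Chow replicate 4 was far above all other samples, and the groups overlapped only because HFrD replicate 3 lay just above chow replicate 1. The HFrD mean of 37101 ± 3430 CPM was 0.725 of the chow mean of 51192 ± 12922 CPM (SD, n = 4 each), a log2 ratio of -0.46 (SE 0.13, adjusted p = 0.0423 in edgeR). This was the tenth smallest p of the 170.

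Over library totals, with no TMM factor, miR-30a-5p took 3.84%, 3.69%, 4.07% and 3.84% of all counts on HFrD and 4.24%, 4.67%, 4.27% and 6.27% on chow. On that scale every HFrD sample was below every chow sample, as for 15.9% of all sequences tested in either direction and 2.35% with HFrD lower, and miR-30a-5p was the only listed arm for which this held. The call did not outlast every left-out sample: without chow replicate 4 the log2 ratio of miR-30a-5p was -0.30 with an adjusted p of 0.0561 in edgeR. The adjusted p in edgeR was 0.127 without chow replicate 2, and 0.0521, 0.0935 and 0.0970 when HFrD 1, 2 or 4 was left out, with log2 ratios of -0.49, -0.41, -0.44 and -0.46. It was 0.252 with upper-quartile scaling, at a log2 ratio of -0.33.

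**Figure D1:**
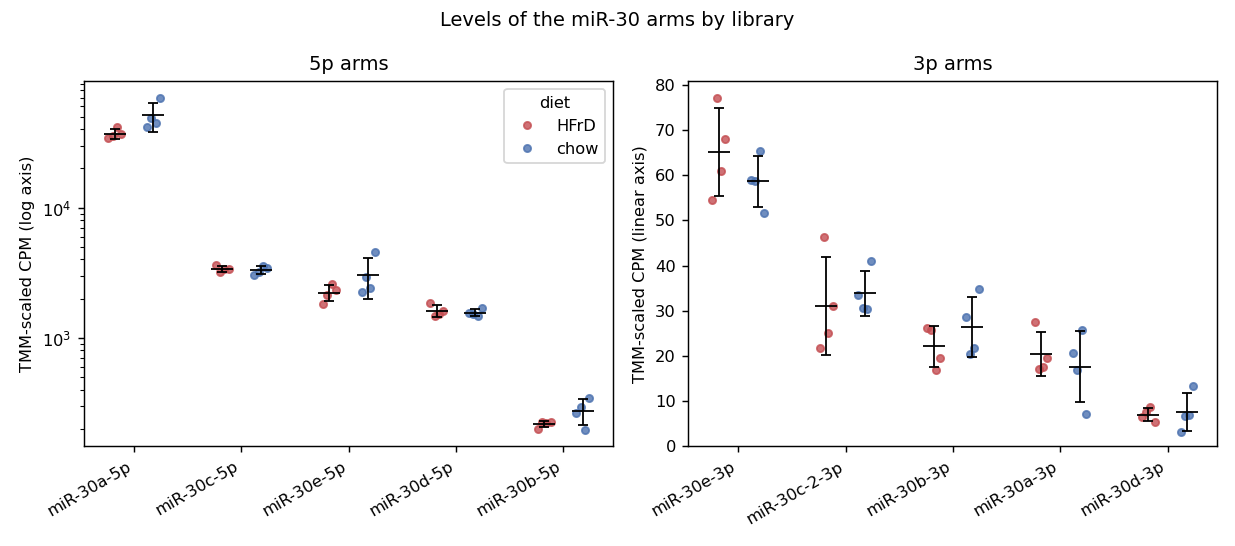
Levels of the miR-30 arms in TMM-scaled CPM, with the 5p arms on a log axis on the left and the 3p arms on a linear axis on the right. Points are single libraries, HFrD left of chow, and bars are mean ± SD of 4 libraries; miR-30c-1-3p, at 0 to 5 counts, is not drawn. The chow 4 library stands above the rest for miR-30a-5p at 70098 CPM and for miR-30e-5p at 4561 CPM, while miR-30c-5p and miR-30d-5p lie at like levels on both diets.

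The near-identical miR-30e-5p measured 1832, 2139, 2591 and 2334 CPM on HFrD, against 2246, 2916, 2417 and 4561 CPM on chow. The groups overlapped, with chow replicate 4 again highest. Its log2 ratio of -0.45 (SE 0.17) missed the threshold, with an adjusted p of 0.113 in edgeR, and it was -0.21 without chow replicate 4.

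The rarest 5p arm, miR-30b-5p, measured 198, 225, 223 and 224 CPM on HFrD, against 263, 296, 196 and 345 CPM on chow. The HFrD samples were close together and the chow samples lay on both sides of them, replicate 3 being lowest and replicate 4 highest. At -0.34 (SE 0.14), its log2 ratio missed the threshold, with an adjusted p of 0.157 in edgeR.

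For miR-30c-5p and miR-30d-5p the diets lay closer together. The second most abundant arm of the family, miR-30c-5p, measured 3637, 3193, 3363 and 3398 CPM on HFrD and 3052, 3191, 3584 and 3446 CPM on chow. Its means were 3398 ± 183 CPM on HFrD and 3318 ± 241 CPM on chow (SD, n = 4 each), a log2 ratio of 0.03 (SE 0.086, adjusted p = 0.801 in edgeR). Both diets spanned nearly the same range.

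Likewise miR-30d-5p measured 1860, 1463, 1521 and 1619 CPM on HFrD and 1555, 1520, 1471 and 1696 CPM on chow. HFrD replicate 1 was the highest of the 8 samples. The log2 ratio was 0.05 (SE 0.095, adjusted p = 0.743 in edgeR). That library was the lowest of the 8 for miR-30a-5p.

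**Figure D2:**
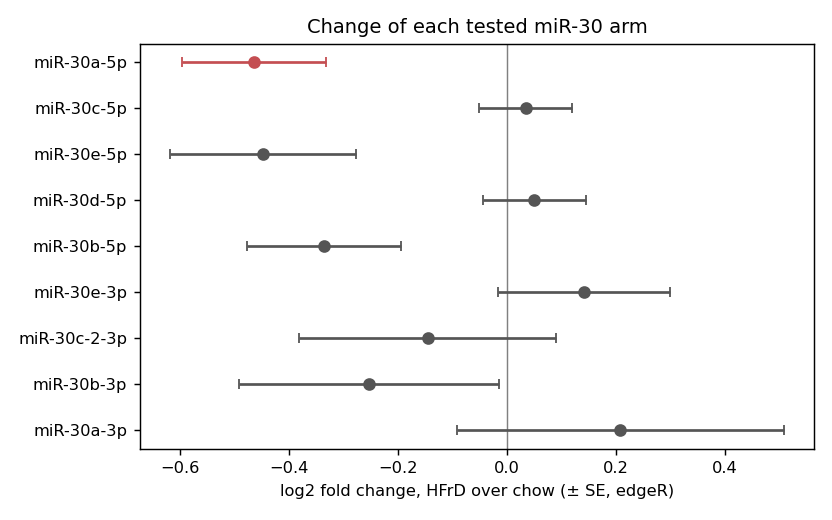
Log2 ratio of each tested miR-30 arm, HFrD over chow, with its standard error from edgeR, n = 4 per diet. The arms run from the most abundant at the top to the least abundant. Of the 9 arms drawn, only miR-30a-5p, in red at -0.46, passed the adjusted threshold; miR-30c-5p and miR-30d-5p lie near 0.

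None of the 8 tested listed arms had HFrD and chow samples that did not overlap in TMM-scaled CPM, whereas 14.1% of all sequences tested had such groups and 8.24% had them with HFrD lower. Changing the scale moved all miRNAs together: the median log2 ratio over all sequences tested was 0.01 with TMM factors, 0.13 over library totals and 0.12 with upper-quartile factors. Set against that median, miR-30a-5p stood at -0.48, -0.47 and -0.45 on these scales and miR-30e-5p at -0.46, -0.45 and -0.41. Relative to the median, miR-30c-5p stayed at 0.02, 0.03 and 0.01.

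Whether the other arms responded differently from miR-30a-5p was tested on the ratio of each sequence to miR-30a-5p within a library, which needs no scaling between libraries. In limma, 16 of the 169 other sequences passed, 9.47%, each of them higher relative to miR-30a-5p on HFrD, and 0 of the 8 tested family arms, miR-30b-3p included, were among them. The median of the 169 log2 differences was 0.45, so most of the table stood higher relative to miR-30a-5p. At an unadjusted p under 0.05 in limma, 3 of the 8 family arms passed, against 40.2% of all tested. The count of 16 was 2, 4, 9 and 7 when HFrD 1, 2, 3 or 4 was left out, and 37 and 5 when chow 1 or 2 was.

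Those 3 arms were miR-30e-3p, miR-30d-5p and miR-30c-5p. Relative to miR-30a-5p on HFrD, miR-30e-3p was higher by 0.58 on the log2 scale (SE 0.25, adjusted p = 0.112 in limma), miR-30d-5p by 0.48 (SE 0.21, adjusted p = 0.114) and miR-30c-5p by 0.47 (SE 0.21, adjusted p = 0.114). The ratio of miR-30e-5p to miR-30a-5p differed between the diets by 0.04 (SE 0.18, adjusted p = 0.870 in limma). A difference in response between miR-30a-5p and any other arm of the family was thus not shown at the adjusted threshold.

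Summed over the 5 arms, the shared 5p seed reached 41610, 42424, 49624 and 44566 CPM on HFrD, against 48735, 56484, 52156 and 80146 CPM on chow. The mean of 44556 ± 3601 CPM on HFrD was 0.750 of the mean of 59380 ± 14202 CPM on chow (SD, n = 4 each). As a percentage of all counts the 5p arms together held 4.69, 4.42, 4.82 and 4.63 on HFrD and 4.97, 5.44, 5.00 and 7.16 on chow. On this scale the diets did not overlap, as for 2.35% of single sequences tested with HFrD lower, but in TMM-scaled CPM HFrD replicate 3 lay above chow replicate 1. On the log2 scale the mean 5p total differed by -0.39 between HFrD and chow, and by -0.24 without chow replicate 4. These totals were not tested, since the members were chosen with results of these data known.

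Of the difference in mean total, -14824 CPM, the arm miR-30a-5p made up -14091 CPM. Without it, the remaining 4 arms summed to 7455 ± 298 CPM on HFrD and 8189 ± 1284 CPM on chow (SD, n = 4 each), and the diets overlapped. By summed abundance the miR-30 seed ranked 6 of 366 seeds on both diets, after the seeds led by miR-148a-3p, miR-21a-5p, miR-122-5p, miR-192-5p and let-7g-5p. As a single sequence miR-30a-5p ranked 6 of 443 on HFrD and 5 on chow.

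The share of miR-30a-5p in the 5p total was 81.9%, 83.5%, 84.5% and 83.0% on HFrD, against 85.4%, 86.0%, 85.3% and 87.5% on chow. Every HFrD sample was below every chow sample, and the means, 83.2% ± 1.07 on HFrD and 86.0% ± 0.999 on chow (SD, n = 4 each), differed by -2.82 percentage points. Exact Clopper-Pearson 95% intervals of a single library's share were at most 0.657 points wide, which covers counting error only. Of single sequences tested, 14.1% had groups that did not overlap in TMM-scaled CPM, 8.24% with HFrD lower, which is a different measure from a share. The shares were not tested, and the test of ratios to miR-30a-5p given above called no arm of the family.

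The share of miR-30c-5p was 8.74%, 7.53%, 6.78% and 7.63% on HFrD, against 6.26%, 5.65%, 6.87% and 4.30% on chow. These groups overlapped through HFrD replicate 3 and chow replicate 3. Mean shares were 3.65% on HFrD and 2.70% on chow for miR-30d-5p, 4.98% on HFrD and 5.02% on chow for miR-30e-5p, and 0.490% on HFrD and 0.467% on chow for miR-30b-5p. For each of these arms the diets overlapped. A share rises when another member falls, so the shares are not independent of each other.

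**Figure D3:**
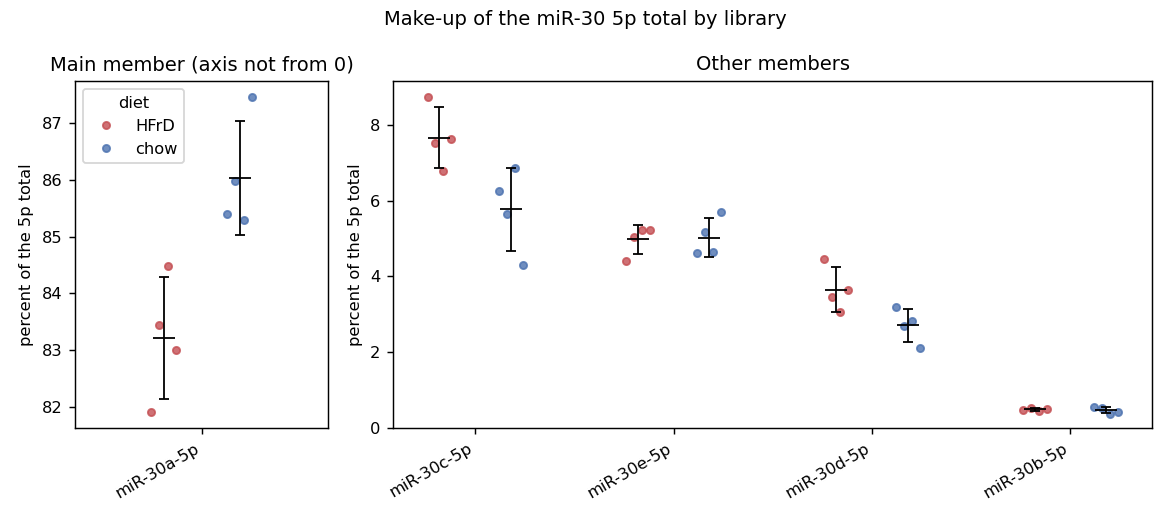
Share of each 5p arm in the summed miR-30 5p counts of its library, in percent, HFrD left of chow. Points are libraries and bars are mean ± SD of 4 libraries; the axis of the miR-30a-5p panel does not start at 0. The miR-30a-5p shares of 81.9% to 84.5% on HFrD lie below those of 85.3% to 87.5% on chow.

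Some pairs of 5p arms kept a steady ratio across the 8 libraries. The ratio of miR-30a-5p to miR-30e-5p counts stayed between 15.4 and 18.6, with a standard deviation (SD) of 0.110 on the log2 scale, and that of miR-30c-5p to miR-30d-5p stayed between 1.96 and 2.44, with an SD of 0.104. Among the 1378 pairs of the 53 sequences averaging at least 200 CPM, where the median SD was 0.238, these ranked 45 and 37 from the steadiest. By contrast the ratio of miR-30a-5p to miR-30c-5p ran from 9.37 to 20.3 with an SD of 0.342, rank 1141, and that of miR-30a-5p to miR-30d-5p from 18.3 to 41.3 with an SD of 0.350, rank 1164.

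Whether steady ratios go with shared hairpin clusters was not tested, and the miR-30c-5p count joins both of its hairpins. The steady pair miR-30a-5p and miR-30e-5p comes from different chromosomes and differs by 1 base, and the part of reads assigned to the wrong arm in this was not tested. The unsteady pair miR-30a-5p and miR-30d-5p also differs by 1 base, and wrongly assigned reads were not tested for it either. The rule for assigning such reads is not given, so these pairs do not show what part they played. One miR-30c hairpin lies on the chromosome of miR-30a-5p and the other on that of miR-30e-5p. The count of miR-30c-5p was not steady against either of these arms, its ratio to miR-30e-5p having an SD of 0.405. Since that count joins both hairpins, it does not tell whether arms of a shared cluster keep a steady ratio. The ratio of miR-30b-5p to miR-30d-5p, arms whose positions were not available here, had an SD of 0.304, rank 1017. These ratios share libraries and members, and they are given as a description with no test.

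**Figure D4:**
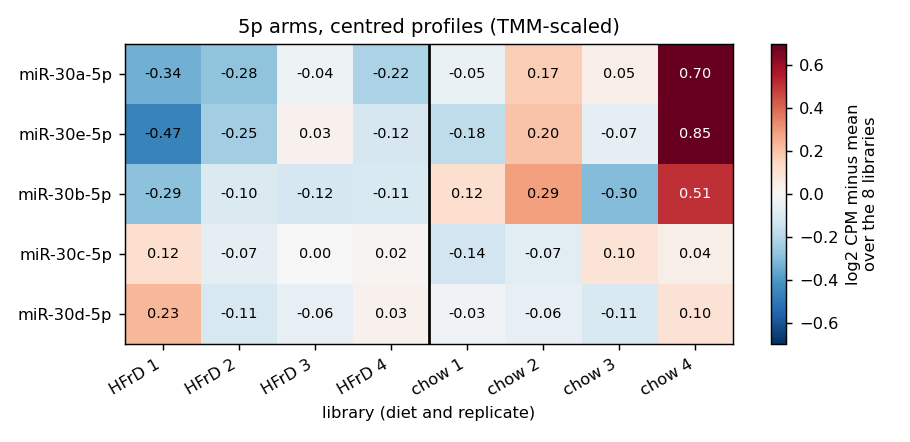
Log2 CPM of each 5p arm minus its mean over the 8 libraries, HFrD on the left and chow on the right. Red is above and blue below that mean. The rows of miR-30a-5p, miR-30e-5p and miR-30b-5p are highest in chow 4, at 0.70, 0.85 and 0.51, whereas those of miR-30c-5p and miR-30d-5p are highest in HFrD 1, at 0.12 and 0.23.

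Chow replicate 4 separated the 5p arms in the same way. Its level over the mean of the other chow samples was 1.81 for miR-30e-5p, 1.56 for miR-30a-5p and 1.37 for miR-30b-5p, but 1.12 for miR-30d-5p and 1.05 for miR-30c-5p. Among the 3p arms whose 5p partners were high in that library, it was 0.337 for miR-30a-3p, 0.847 for miR-30e-3p and 1.47 for miR-30b-3p. For the others it was 1.30 for miR-30c-2-3p and 2.36 for miR-30d-3p. These 3p values rest on few counts, in chow replicate 4 only 8 of miR-30a-3p, 39 of miR-30b-3p and 15 of miR-30d-3p.

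The 3p arms were rare. Their summed level, with miR-30b-3p included, was 147 ± 19.2 CPM on HFrD and 146 ± 6.98 CPM on chow (SD, n = 4 each), and the 5p total exceeded it by a factor of 309 ± 55.5 on HFrD and 407 ± 97.9 on chow. None of the 3 listed 3p arms that passed the filter passed the test in edgeR, and 2 were higher and 1 lower, with a median log2 ratio of 0.14.

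The most abundant of them, miR-30e-3p, measured 54.4, 77.1, 61.0 and 68.0 CPM on HFrD and 58.9, 58.6, 65.3 and 51.6 CPM on chow. The groups overlapped, and the log2 ratio of 0.14 (SE 0.16, adjusted p = 0.565 in edgeR) had the opposite sign to that of its 5p partner. Its relative with the same seed, miR-30a-3p, was counted only 43, 20, 28 and 26 times on HFrD and 26, 20, 33 and 8 times on chow. Its log2 ratio was 0.21 (SE 0.30, adjusted p = 0.677 in edgeR), with the lowest count in chow replicate 4, the library with most miR-30a-5p. Without that library the log2 ratio of miR-30a-3p was -0.06.

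The 3p arms of miR-30c tell its hairpins apart, which the shared 5p arm cannot. Over the 4 libraries of each diet, miR-30c-2-3p, from the hairpin on chromosome 1, was counted 169 times on HFrD and 163 times on chow. The chromosome 4 arm miR-30c-1-3p was counted 4 times on HFrD and 10 times on chow, in single libraries 0 to 2 times on HFrD and 0 to 5 times on chow, and it did not pass the filter. For miR-30c-2-3p the log2 ratio was -0.15 (SE 0.24, adjusted p = 0.698 in edgeR). The levels of a 3p arm depend on its stability as well as on the hairpin, so these counts do not give the output of each hairpin.

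The last listed arm, miR-30d-3p, had 7 to 14 counts in HFrD libraries and 4 to 15 in chow libraries and also missed the filter. Outside the list, miR-30b-3p stood at a log2 ratio of -0.25 (SE 0.24, adjusted p = 0.503 in edgeR).

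The counts of the 5p arm per count of the 3p arm of a hairpin were compared because this ratio does not depend on library scaling. For miR-30a it was 1237, 2066, 2382 and 1883 on HFrD, against 2010, 2859, 1733 and 9844 on chow, where the last value rests on the 8 counts of miR-30a-3p. The log2 difference was -0.75 (SE 0.48, adjusted p = 0.394 in limma), and -0.22 without chow replicate 4. For miR-30e the ratio was 33.6, 27.7, 42.5 and 34.3 on HFrD, against 38.1, 49.8, 37.0 and 88.3 on chow, a log2 difference of -0.54 (SE 0.30, adjusted p = 0.361 in limma), which was -0.27 without chow replicate 4.

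The remaining hairpins had log2 differences of 0.26 for miR-30c, with both of its 3p arms summed, 0.02 for miR-30d and -0.07 for miR-30b, with adjusted p of 0.712, 0.955 and 0.897 in limma. Of the 27 hairpins tested, 0 passed the adjusted threshold in limma, 0%, and 3 had an unadjusted p under 0.05, none of them a miR-30 hairpin.

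**Figure D5:**
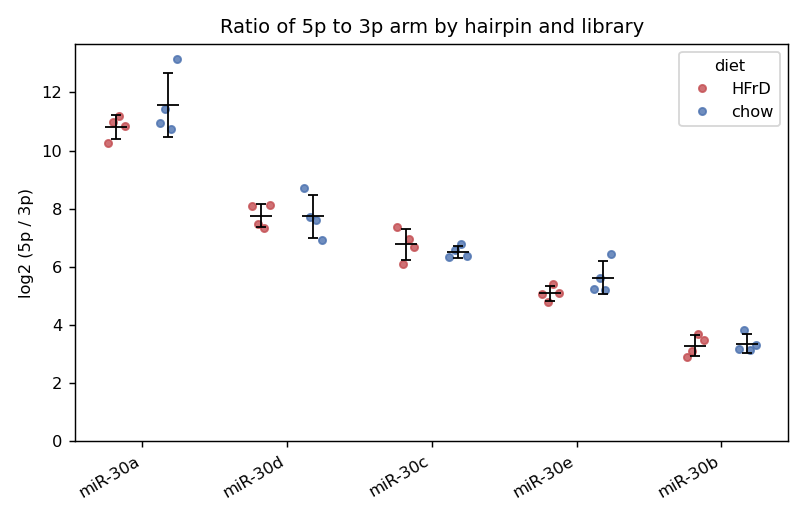
Log2 of the 5p to 3p count ratio for each miR-30 hairpin and library, HFrD left of chow, with mean ± SD of 4 libraries; both 3p arms of miR-30c are summed. The miR-30a ratio is largest, and its highest library, chow 4, has 9844 counts of the 5p arm per count of the 3p arm.

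The miRNAs whose profile over the 8 libraries lay closest to that of miR-30a-5p were sought among the 60 others averaging at least 100 CPM, by the root mean square difference of centred log2 CPM. These were miR-27b-3p at 0.107, miR-152-3p at 0.128, miR-24-3p at 0.133, miR-126a-3p at 0.139 and miR-20a-5p at 0.144. For scale, the root mean square of miR-30a-5p about its own mean was 0.311. Of these, miR-152-3p shares its seed with the liver-rich miR-148a-3p, miR-126a-3p is known from endothelial cells, and miR-27b-3p and miR-24-3p can come from a shared cluster. The closest, miR-27b-3p, averaged 6227 CPM on HFrD and 8522 CPM on chow. The same 5 lay closest to the 5p total.

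Set among those sequences, miR-30e-5p lay nearest to miR-30a-5p, at 0.103 and rank 1 of 64, and miR-30b-5p at 0.178 and rank 9. The arms miR-30c-5p, at 0.320 and rank 39, and miR-30d-5p, at 0.328 and rank 41, were farther from it than a flat profile would be. Likeness over 8 libraries that differ in depth and diet is a description of those libraries. For each of the nearest sequences outside the family, chow replicate 4 lay above every HFrD sample. For miR-27b-3p it stood at 10223 CPM, against at most 6354 CPM on HFrD.

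Marker miRNAs of the cell types liver can hold were read beside these results. Of 27 listed markers, 25 were in the table and 20 passed the filter, and 2 were called in edgeR, both lower on HFrD, miR-122-3p and miR-126a-3p, where 3.53% of all sequences tested were called lower. The hepatocyte list, led by miR-148a-3p and miR-122-5p, summed to 581391 to 627985 CPM on HFrD and 616027 to 704499 CPM on chow. Of its members, miR-122-3p did not overlap, at 131 to 144 CPM on HFrD and 187 to 261 CPM on chow, and the others overlapped.

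The endothelial list, miR-126a-3p and miR-126a-5p, summed to 5893 to 6865 CPM on HFrD and 7440 to 10084 CPM on chow. These sums did not overlap, as for 8.24% of single sequences tested with HFrD lower, and chow replicate 4 was highest. The sum was carried by miR-126a-3p, at 5660 to 6566 CPM on HFrD and 7188 to 9803 CPM on chow, whereas miR-126a-5p overlapped, at 233 to 299 CPM on HFrD and 253 to 310 CPM on chow. The part of endothelial RNA in the lower miR-30a-5p was not tested. The other lists overlapped between the diets. Stellate and fibroblast markers summed to 3793 to 5184 CPM on HFrD and 4417 to 4957 CPM on chow, biliary markers to 450 to 641 CPM on HFrD and 515 to 743 CPM on chow, and muscle markers to 550 to 633 CPM on HFrD and 541 to 736 CPM on chow. Erythroid markers summed to 65.3 to 137 CPM on HFrD and 76.5 to 87.9 CPM on chow, and myeloid and lymphoid markers stayed at or below 22.3 CPM in every library. Of the lymphoid list, miR-155-5p, and of the stellate and fibroblast list, miR-214-3p, were at or near 0.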

How the data were processed

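Mature miRNAs were measured in 8 mouse liver samples, 4 on HFrD and 4 on chow. Total RNA was taken with TRIzol, and the labels' protocols go on to ribosomal RNA depletion and a stranded total RNA library on a NovaSeq instrument; how small RNA was selected, not given in the sources used here, may favour some sequences. The authors deposited raw counts per mature miRNA, per the file headers. Per the submitters' processing notes, the tools included cutadapt 1.9.2 and Novoalign 3.02.12, and the build was mm10. The authors also deposited a normalized score, equal to each count divided by a constant of its library (4.21 to 6.19), used only as an alternative. The smallest count was 2, and blank cells (35.3%) were read as 0.

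The 484 entries, which repeat a miRNA for each of its genes, were merged by mature sequence into 443. The diets were compared with edgeR 4.0.16 (R 4.3.3): quasi-likelihood test, TMM factors, filterByExpr at a minimum count of 10, diet as the only term, two-sided, Benjamini-Hochberg over the 170 sequences tested, threshold 0.05. Ratios of arms (hairpins whose arms each average at least 5 CPM) and ratios to miR-30a-5p, log2 of CPM plus 0.5, were tested with limma 3.58.1. Steps were tested on simulated data.

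Alternatives were other scalings, filters and pseudocounts, DESeq2 1.42.0, the score, established names only, a replicate block and leaving out each sample. Members, lists and tests were chosen with earlier results of these data known. Beside the members, the arms named are their hairpin partners and the 5 miRNAs with profiles most like miR-30a-5p or the 5p total. Of the markers, miR-141-3p and miR-133a-3p were not analysed here. Replicate samples differed by more than sampling noise, with chi-square per degree of freedom of at least 6.60, so all 8 were kept. Positions are from GENCODE M21 and RefSeq on GRCm38. Tables and plots used Python 3.11.15, pandas 2.3.3 and matplotlib 3.10.9.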

Additional observations from a re-analysis of the deposited data

Results flagged for a closer look

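Of 46 groups of 4 values of the miR-30 arms, totals, shares and ratios checked for a sample far from the rest, 1 stood out, where chance alone flags about 1 in 20. It was miR-30b-5p on HFrD, where replicate 1 had 198 CPM and the other HFrD samples had 223 to 225 CPM, so that its gap took 0.898 of the range. All 4 values lay within the range of the chow samples, 196 to 345 CPM. Not flagged on the log2 scale was the 5p to 3p ratio of miR-30a on chow. There chow replicate 4 stood at 13.2 and the other chow samples at 10.7 to 11.4. In counts of 5p per count of 3p, a scale on which this group was not checked, the gap is wider. Chow replicate 4 stood at 9844 and the other chow samples at 1733 to 2859.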

How the results depend on the processing

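Of 380 alternative values, 344 were classed as kept, among them every value of the 5p total and of the shares. Log2 ratios of single arms or hairpins kept their direction and call, and totals and shares moved by less than the spread between samples. Counts of called sequences or hairpins were classed as kept when close to the main count. These kept counts were 7 to 15 in edgeR, against 10, and 13 to 23 relative to miR-30a-5p in limma, against 16. The count of sequences passing edgeR, 10 (4 higher, 6 lower), was 23 over library totals (17 higher, 6 lower), 1 with upper-quartile factors, 3 with limma on the deposited score, 22 with no filter and 17 with established names only. Leaving out 1 sample gave 1 (without chow 2) to 17 (without chow 3). The count relative to miR-30a-5p, 16 in limma, was 26 with a pseudocount of 5 CPM and ran from 2 (without HFrD 1) to 37 (without chow 1). For arm ratios, leaving out a sample gave 0 to 1 called hairpins.

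The adjusted p of miR-30a-5p ran from 0.00321 to 0.252. It was 0.0147 with DESeq2 and missed the threshold with upper-quartile factors, with the score (0.222), and without chow 2 (0.127), chow 4 (0.0561), HFrD 1 (0.0521), HFrD 2 (0.0935) or HFrD 4 (0.0970); the cause was not tested. By contrast miR-30b-5p passed without chow 3 (-0.47, adjusted p = 0.0216 in edgeR) and miR-30e-5p with no filter (-0.38, adjusted p = 0.00987).

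Signs reversed for miR-30a-3p without chow 4, miR-30c-2-3p without HFrD 1, miR-30c-5p without chow 1 and miR-30d-5p without HFrD 1. Leaving out 1 sample, their log2 ratios ran from -0.061 to 0.45, from -0.39 to 0.0088, from -0.0050 to 0.077 and from -0.0058 to 0.093, in that order. Untested share differences also changed sign within that spread: that of miR-30e-5p, -0.048 percentage points, was 0.14 without HFrD 1 and 0.17 without chow 4, and that of miR-30b-5p, 0.022, was -0.0081 without chow 3. The arm ratio reversed for miR-30b without chow 2 or HFrD 1 (-0.20 to 0.086) and for miR-30d without chow 3, chow 4, HFrD 1 or HFrD 4 (-0.25 to 0.35).

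Replicate numbers are those of the sample titles and do not always match the numbers in the sample descriptions. Same-numbered samples deviated together with correlations of -0.10 to 0.14, so the numbers are not taken as pairs. With a replicate block, 15 sequences passed, and the adjusted p was 0.0107 for miR-30a-5p and 0.0464 for miR-30e-5p in edgeR. The 3p arms rest on few counts, in single libraries down to 8 for miR-30a-3p, 4 for miR-30d-3p and 0 for miR-30c-1-3p.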
